A study of Homo sapiens with 6 samples.

Results

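The genes described here make cholesterol, control its synthesis and move it within the cell. They are 30 genes chosen by name: 18 enzymes of the mevalonate and sterol pathway, 7 genes of the SREBP control system and 5 genes of sterol traffic. All 30 were found by their gene name among the 29638 gene rows of the tables. They were measured by messenger RNA sequencing in AC16 cells, an established human line derived from a fusion of ventricular heart muscle cells with fibroblasts carrying SV40. The labels describe the cells as wild type. The 6 libraries comprise 3 from cells given ethanol, the vehicle (control 1 to 3), and 3 from cells given PA (PA 1 to 3). PA stands for palmitic acid (saturated) by the series title but for palmitelaidic acid (trans-monounsaturated) by the treatment labels, and which of them was used cannot be told from these sources. The sources used here give neither dose nor time.

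Cholesterol is built from acetyl-CoA through mevalonate, isoprenoid units, squalene and lanosterol. When the endoplasmic reticulum membrane is poor in sterol, SCAP carries the SREBP precursor to the Golgi apparatus, where a pair of proteases releases the transcription factor that switches on these enzyme genes. When sterol is plentiful, INSIG proteins hold the SCAP and SREBP complex in the endoplasmic reticulum. Sterol taken up through lysosomes leaves them by way of NPC2 and NPC1, is esterified by SOAT1 for storage, and can be exported by ABCA1.

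The promoters of 5 genes described below are shown. TM7SF2 and LSS are sterol ring enzymes with the highest and the lowest fold change of the 30. MSMO1 and NSDHL act in the same removal of methyl groups from the sterol ring and lay on opposite sides of zero. SREBF2 encodes the main SREBP of cholesterol synthesis. Each runs 5′ to 3′ along the gene's strand, from 250 bases before to 50 bases after the RefSeq start, on build GRCh38.p14. Capitals mark CCAAT, the core of the NF-Y box, on either strand, and TCACNCCAC, a form of the sterol regulatory element bound by SREBP, on either strand. The stretch CCAATTGG in NSDHL is a pair of CCAAT matches on opposite strands that overlap.
TM7SF2, chr11:65111622-65111921, plus strand: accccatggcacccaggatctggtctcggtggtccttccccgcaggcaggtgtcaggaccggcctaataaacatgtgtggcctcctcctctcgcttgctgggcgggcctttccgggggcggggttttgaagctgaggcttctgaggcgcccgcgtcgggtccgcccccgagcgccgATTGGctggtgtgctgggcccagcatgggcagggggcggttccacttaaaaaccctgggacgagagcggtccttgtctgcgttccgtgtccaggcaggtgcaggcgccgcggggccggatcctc
LSS, chr21:46228725-46229024, minus strand: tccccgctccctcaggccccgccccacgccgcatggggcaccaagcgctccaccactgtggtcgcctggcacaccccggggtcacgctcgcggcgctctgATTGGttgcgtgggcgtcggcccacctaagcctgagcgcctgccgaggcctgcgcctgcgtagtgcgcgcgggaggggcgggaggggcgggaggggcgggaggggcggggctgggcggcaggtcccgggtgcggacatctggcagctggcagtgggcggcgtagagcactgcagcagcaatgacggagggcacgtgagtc
MSMO1, chr4:165327419-165327718, plus strand: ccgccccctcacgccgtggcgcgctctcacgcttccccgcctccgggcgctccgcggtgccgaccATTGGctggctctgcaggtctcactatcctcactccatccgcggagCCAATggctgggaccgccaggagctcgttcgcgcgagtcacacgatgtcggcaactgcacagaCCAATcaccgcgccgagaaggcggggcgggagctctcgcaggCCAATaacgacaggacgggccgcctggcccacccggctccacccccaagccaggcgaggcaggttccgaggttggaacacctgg
NSDHL, chrX:152830813-152831112, plus strand: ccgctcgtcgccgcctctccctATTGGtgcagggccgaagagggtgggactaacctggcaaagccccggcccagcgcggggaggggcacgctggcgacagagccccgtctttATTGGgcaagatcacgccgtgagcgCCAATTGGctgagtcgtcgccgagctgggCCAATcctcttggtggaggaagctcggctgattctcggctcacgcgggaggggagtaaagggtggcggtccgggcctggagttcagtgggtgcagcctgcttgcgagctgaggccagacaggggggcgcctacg
SREBF2, chr22:41832855-41833154, plus strand: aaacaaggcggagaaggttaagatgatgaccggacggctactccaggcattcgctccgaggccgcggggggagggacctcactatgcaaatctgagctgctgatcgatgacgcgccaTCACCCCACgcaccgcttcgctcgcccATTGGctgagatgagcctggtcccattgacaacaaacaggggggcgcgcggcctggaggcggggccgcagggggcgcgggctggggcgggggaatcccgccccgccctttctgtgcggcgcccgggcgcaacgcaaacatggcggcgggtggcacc

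RefSeq promoter sequences were matched for 27 of the 30 genes; ACAT2, FDFT1 and SQLE were not matched. TCACNCCAC was found in 1 of the 27, SREBF2, and in 1.15% of all 27305 promoters of the same length. CCAAT was found in 17 of the 27, or 63.0%, and in 35.7% of all promoters. NSDHL and MVK held 5 matches each, MSMO1 held 4, and TM7SF2 and LSS held 1 each. The palindromic E-box CACGTG was found in 5 of the 27, or 18.5%, and in 7.43% of all promoters. A looser form, TCACNCNAC, which also takes in every TCACNCCAC, was found in 3, FDPS, HSD17B7 and SREBF2, and in 2.57% of all promoters. The 27305 promoters were taken without a filter on gene type or level. All 30 genes are protein-coding and were above 1 RPKM on average, so these shares compare unlike sets. These matches are letters in a window and do not show binding. Genes with CCAAT stood on both sides of zero: TM7SF2 and INSIG1 had positive log2 fold changes, and LSS, SC5D and SOAT1 negative ones.

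PA was set against control to see which of these transcripts change in level when cells are given the fatty acid. Of the 30 genes, 2 passed, TM7SF2 and FDFT1, and both rose. No sterol enzyme, SREBP control gene or traffic gene fell past the threshold. The test was limma on log2(RPKM + 1) over 14159 genes with a mean of at least 1 RPKM, with Benjamini-Hochberg adjusted p under 0.05. Of all genes tested, 4.81% passed, 2.84% as higher in PA and 1.97% as lower. The share of the 30 genes that passed as higher was 6.67%, which is a count of 2. Before adjustment, 9 of the 30 had a limma p under 0.05, as did 3663 of all 14159 genes tested. Unadjusted counts given below for smaller groups are to be read beside that background. With values rescaled to a common sum per library, the higher share of all calls moved from 59.0% to 39.0%, the median over all genes shifted by the same rescaling from -0.02 to -0.11 log2 units, and 1 of the 30 genes was called higher (TM7SF2) and 1 lower (ACAT2).

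As a group the genes did not move in a common direction. Their log2 fold changes were positive for 15 and negative for 15, with a median of -0.0012 beside -0.02 for all genes tested. In 5 genes the 3 PA values lay above the 3 control values (FDPS, FDFT1, TM7SF2, MSMO1 and INSIG1), and in 5 they lay below (ACAT2, LSS, NSDHL, SC5D and SOAT1). The shares of all genes tested were 16.7% above and 15.9% below. Groups without overlap in either direction made up 33.3% of the 30 genes and 32.6% of all genes tested. Across 17 alternative settings, 17 of the 30 genes kept their sign, 9 positive and 8 negative. The other 13 changed sign under at least 1 setting.

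**Figure D1:**
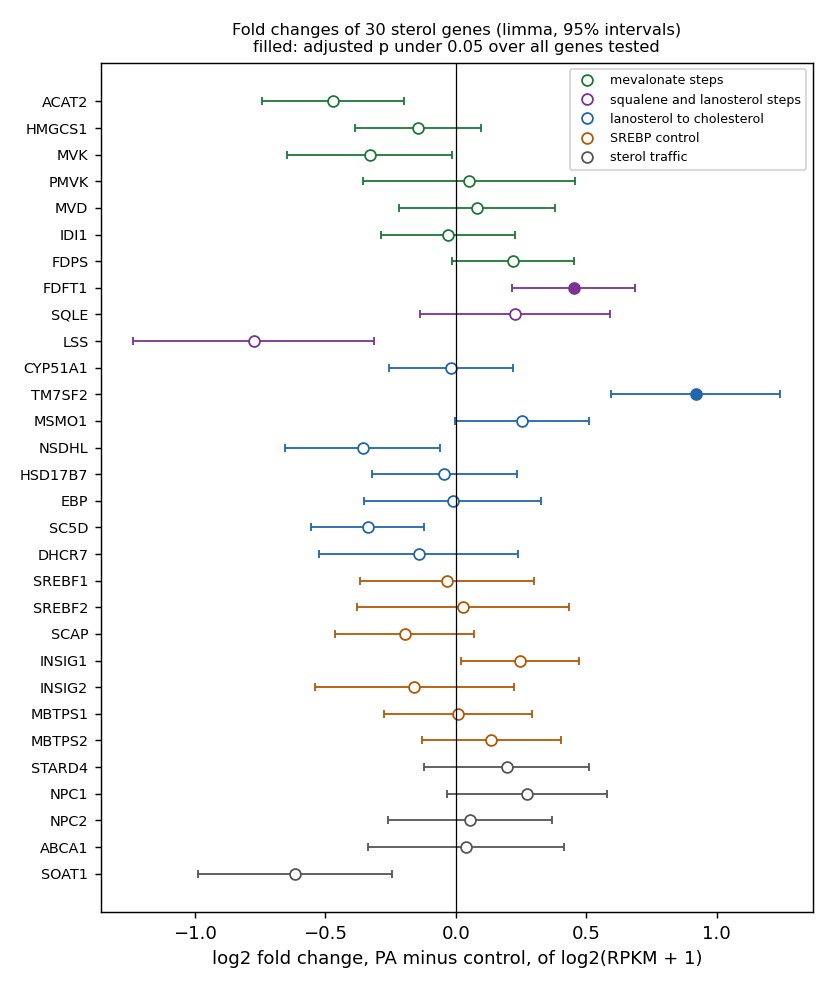
Log2 fold change (PA minus control, of log2(RPKM + 1)) of the 30 genes by role, with 95% limma intervals; n = 3 libraries per group. Filled points passed the adjusted threshold over all genes tested: FDFT1 at 0.45 and TM7SF2 at 0.92. LSS at -0.77 and SOAT1 at -0.62 had the lowest values and did not pass.

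Read depth itself is not given by RPKM, which is already scaled to library size. The most common ratio between libraries of values from 0.2 to 1.2 RPKM gave estimates of 0.929 to 1.13, with PA 1 the highest. Because that scaling draws such ratios towards 1, these estimates cannot show whether the libraries were alike in depth. The labels do not say whether replicate libraries are separate cultures; if they are not, the p-values reflect technical spread alone. Defining cardiomyocyte markers were at or near 0: of 9 listed, only TNNI3 reached the filter, TNNT2 was at 0 in all 3 controls, and their summed level was 1.24 to 2.44 RPKM in control and 3.29 to 4.69 RPKM in PA. All 8 fibroblast markers reached the filter, with sums of 581 to 684 RPKM in control and 350 to 542 RPKM in PA. Past the threshold, 2 of them fell, COL3A1 (mean from 3.81 to 0.86 RPKM) and FAP (from 19.9 to 11.5 RPKM). The lower sums came mostly from COL1A1, whose mean went from 299 to 139 RPKM without overlap. Its log2 fold change of -1.18 did not pass (limma adjusted p = 0.051). Of the 8 log2 fold changes, 7 were negative and 1, that of COL1A2, was positive. Leukocyte markers summed to 43.6 to 54.7 RPKM in control and 65.6 to 76.3 RPKM in PA, nearly all of it CD68, and PTPRC was at or near 0 in every library. Endothelial sums were 6.41 to 7.01 and 9.23 to 11.6 RPKM, and epithelial sums were 272 to 342 and 323 to 349 RPKM. Past the threshold as higher were TNNI3 by 1.18 log2 units, TIE1, the 1 tested endothelial marker, by 0.70, CD14 of the leukocyte list by 0.72 and KRT8 of the epithelial list by 0.65 (limma adjusted p from 0.0288 to 0.0321). The part of these shifts in the results below was not tested. In such bulk libraries fewer cells of a type and less RNA per cell cannot be told apart.

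All 30 genes were above 1 RPKM on average, so none was lost to the filter. RPKM is scaled by transcript length, so levels can be set roughly side by side between genes. Reads shared with overlapping genes, as described below for TM7SF2, MVK and NPC2 among others, may shift them. The highest mean level over the 6 libraries was that of NPC2, the soluble lysosomal sterol carrier, at 332 RPKM. It was followed by FDFT1 at 230 RPKM, FDPS at 157 RPKM and HMGCS1 at 104 RPKM. MVD at 42.5 RPKM, MVK at 17.5 RPKM and PMVK at 16.8 RPKM, which act between HMGCS1 and FDPS, were lower. From IDI1 at 62.7 RPKM down to PMVK at 16.8 RPKM, neighbours in this order lay close together: SQLE at 58.7 and MSMO1 at 58.6 RPKM, or EBP at 40.4 and CYP51A1 at 38.2 RPKM, did not differ beyond the SDs of their groups. At the low end were HSD17B7 at 11.1 RPKM, TM7SF2 at 9.48 RPKM, INSIG2 at 9.13 RPKM, MBTPS2 at 6.46 RPKM and ABCA1 at 2.71 RPKM. TM7SF2 took different places in the groups: at 6.27 RPKM it was below INSIG2 at 9.61 RPKM in control, and at 12.7 RPKM it was above HSD17B7 at 10.9 RPKM and INSIG2 at 8.66 RPKM in PA.

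**Figure D2:**
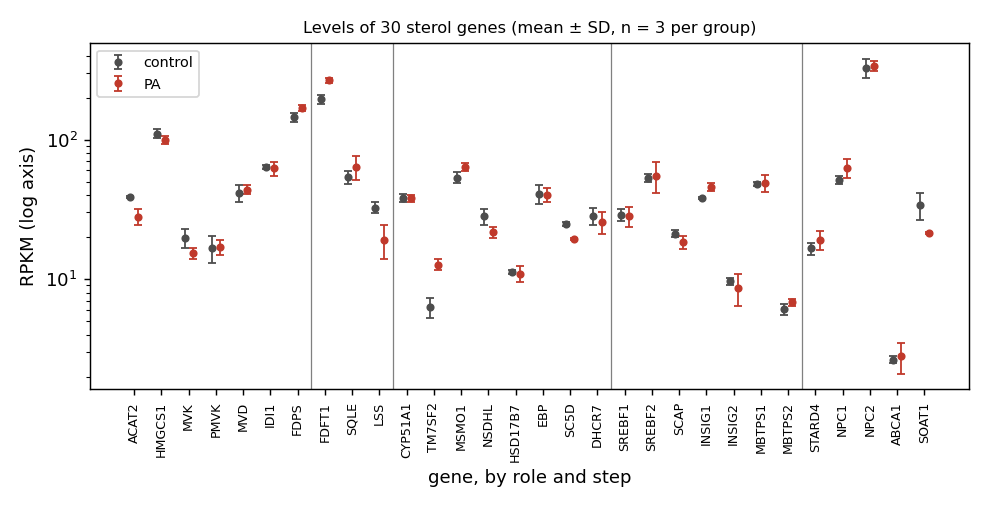
Mean RPKM ± SD (n = 3 libraries per group, log axis) of the 30 genes in control and PA, ordered by role and step. Levels run from 2.71 RPKM for ABCA1 to 332 RPKM for NPC2 over the 6 libraries. On the log axis the group means are furthest apart for TM7SF2.

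TM7SF2 encodes a sterol reductase of the endoplasmic reticulum that acts on the double bond left after lanosterol loses its first methyl group. It was at 5.17, 7.23 and 6.42 RPKM in control 1 to 3 and at 11.55, 13.88 and 12.66 RPKM in PA 1 to 3. The lowest PA library was above the highest control, and no library stood apart from its group. TM7SF2 rose 2.02-fold, from 6.27 ± 1.04 to 12.7 ± 1.17 RPKM (SD, n = 3 per group), with a log2 fold change of 0.92 ± 0.14 (SE; limma adjusted p = 0.0224). In fits that left out 1 library, the TM7SF2 value ranged from 0.81 to 1.01 and the call held without PA 1 and without PA 3. It was lost without any of the 3 controls or PA 2, where adjusted p ranged from 0.0535 to 0.119, and without a filter on low values (adjusted p = 0.0714). After removal of a trend with transcript length and GC content it was 0.76 and still passed.

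Exons of TM7SF2 overlap those of VPS51, a gene of the same strand that encodes a subunit of a vesicle tethering complex. VPS51 was at 66.72, 71.35 and 46.9 RPKM in control and at 83.53, 70.64 and 70.02 RPKM in PA, with a log2 fold change of 0.29 ± 0.17 that did not pass (limma adjusted p = 0.311) and ranged from 0.11 to 0.41 with 1 library left out. The ratio of TM7SF2 to VPS51 was 0.0775, 0.101 and 0.137 in control and 0.138, 0.196 and 0.181 in PA. The ratios of the groups did not overlap, but the highest control and the lowest PA ratio nearly met. VPS51 was added after its values were seen, so the ratio is given without a test. Reads shared between this pair may not be separable. LBR, the lamin B receptor, carries the same reductase activity as TM7SF2. LBR was at 36.79, 36.01 and 38.31 RPKM in control and at 29.06, 27.23 and 27.33 RPKM in PA, lower in all 3 PA libraries, with a log2 fold change of -0.40 ± 0.09 that missed the threshold (limma adjusted p = 0.0534). LBR passed in 2 of the 11 alternatives that kept all libraries (lowest adjusted p = 0.0451) and in 0 of the 6 that left out 1. The reductase pair thus stood on opposite sides of zero, with LBR the more abundant gene in both groups.

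FDFT1 encodes squalene synthase, which joins a pair of farnesyl units and commits the pathway to sterols. Its level was 198.61, 206.47 and 177.16 RPKM in control and 269.21, 252.57 and 274.81 RPKM in PA. Every PA library was above every control. FDFT1 rose 1.37-fold, from 194 ± 15.2 to 266 ± 11.6 RPKM (log2 fold change 0.45 ± 0.10, limma adjusted p = 0.0484). The call lay close to the threshold: it was lost in all 6 fits that left out a library (adjusted p from 0.0675 to 0.175), although the value stayed between 0.39 and 0.50. It was also lost with rescaling to a common sum (0.0615), quantile normalization (0.0578), no variance trend (0.0646) and no filter (0.0927).

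LSS encodes lanosterol synthase, which folds oxidised squalene into the first sterol. It was at 34.59, 33.84 and 29.2 RPKM in control and at 22.37, 21.78 and 13.07 RPKM in PA. All PA libraries were below all controls, and PA 3 was the lowest by a wide margin. LSS had a log2 fold change of -0.77 ± 0.20, the lowest of the 30 genes, from 32.5 ± 2.92 to 19.1 ± 5.21 RPKM, and did not pass (limma adjusted p = 0.0655). Without PA 3 it was -0.54, with an adjusted p of 0.0549. It passed with a minimum of 5 RPKM (adjusted p = 0.0441), with the robust variance model (0.0461), once the length and GC trend was removed (0.0151) and among protein-coding genes alone (0.0274). LSS passed in none of the 6 fits that left out a library (limma adjusted p from 0.0549 to 0.2).

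SQLE, the squalene epoxidase that acts between FDFT1 and LSS, was at 48.96, 51.91 and 60.5 RPKM in control and at 51.89, 62.61 and 76.6 RPKM in PA. Its groups overlapped, and the log2 fold change was 0.23 ± 0.16 (limma adjusted p = 0.394; 95% interval -0.14 to 0.59). For SQLE it was 0.088 without PA 3 and 0.36 without PA 1. The log2 fold changes of the 3 successive steps from farnesyl units to lanosterol lay on both sides of zero. Of these genes only FDFT1 passed. The ratio of FDFT1 to LSS, chosen after the values were seen and so given without a test, was 5.74, 6.10 and 6.07 in control and 12, 11.6 and 21 in PA.

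**Figure D3:**
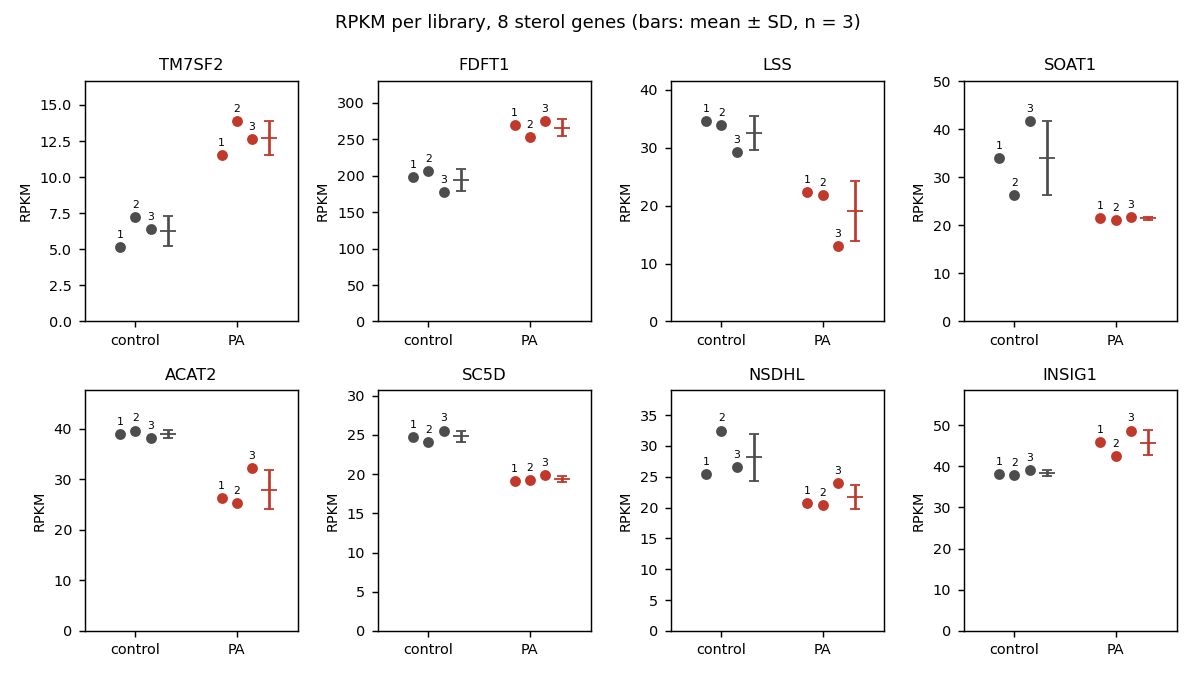
RPKM in each library (points numbered by replicate; axes from 0) with mean ± SD (n = 3) for 8 sterol genes. TM7SF2, FDFT1 and INSIG1 are higher in every PA library than in any control, and LSS, SOAT1, ACAT2, SC5D and NSDHL are lower.

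The mevalonate steps had 0 of 7 genes past the threshold (2 with an unadjusted limma p under 0.05), with log2 fold changes from -0.47 to 0.22 and a median of -0.03. ACAT2, the cytosolic thiolase that makes acetoacetyl-CoA, was at 38.97, 39.67 and 38.13 RPKM in control and at 26.38, 25.28 and 32.3 RPKM in PA. All 3 PA values were lower, with PA 3 nearest to the controls. This gave a log2 fold change of -0.47 ± 0.12, which did not pass (limma adjusted p = 0.061). It passed without PA 3 (-0.57, adjusted p = 0.0394), with rescaling to a common sum (0.0344), with a minimum of 5 RPKM (0.0485) and among protein-coding genes alone (0.0398).

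ACAT2 overlaps at its end with TCP1, a chaperonin subunit on the opposite strand, whose level averaged 258 ± 11.8 RPKM in control and 231 ± 37.2 RPKM in PA. The ratio of ACAT2 to TCP1 was 0.159, 0.148 and 0.146 in control and 0.125, 0.122 and 0.118 in PA. TCP1 was added after its values were seen, so this ratio too is given without a test. The sources used here do not say whether counting used strand, so such a pair may share reads. Exons of 15 of the 30 genes overlap another listed gene, and in 6 of them (ACAT2, MVK, NPC1, NPC2, SREBF1 and TM7SF2) the partner is at 10 RPKM or more.

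HMGCS1, the synthase that makes HMG-CoA from the product of ACAT2, averaged 110 ± 8.11 RPKM in control and 98.9 ± 6.25 RPKM in PA, with overlapping groups and a log2 fold change of -0.15 ± 0.10 (limma adjusted p = 0.412). MVK, mevalonate kinase, was at 20.24, 22.3 and 16.47 RPKM in control and at 14.99, 16.95 and 14.18 RPKM in PA. Control 3 lay within the PA range. The log2 fold change of MVK was -0.33 ± 0.14 and did not pass (limma adjusted p = 0.178), although it passed once the length and GC trend was removed (adjusted p = 0.0224). The remaining kinase and decarboxylase, PMVK and MVD, and the isomerase IDI1 were within 0.09 log2 units of zero and changed sign between settings.

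FDPS, which makes farnesyl diphosphate, was at 145.81, 155.48 and 134.42 RPKM in control and at 162.84, 165.46 and 178.9 RPKM in PA. All PA libraries were higher, by a log2 fold change of 0.22 ± 0.10 that did not pass (limma adjusted p = 0.219). FDPS and FDFT1, which act in succession, were both higher in every PA library, as were 16.7% of all genes tested. With rescaling to a common sum the FDPS value was 0.11. The 4 listed pseudogenes of FDPS were each at 0.08 RPKM or less.

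The steps from lanosterol to cholesterol had 1 of 8 genes past the threshold, TM7SF2, with 2 positive and 6 negative log2 fold changes. SC5D, the desaturase that places a ring double bond late in the pathway, was at 24.76, 24.12 and 25.57 RPKM in control and at 19.15, 19.27 and 19.88 RPKM in PA. Both groups were tight and did not overlap. The log2 fold change of SC5D was -0.34 ± 0.09 and did not pass (limma adjusted p = 0.0776), and it passed under none of the 17 alternatives.

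NSDHL, a dehydrogenase of the step that removes methyl groups at carbon 4, was at 25.37, 32.5 and 26.52 RPKM in control and at 20.66, 20.41 and 23.95 RPKM in PA. Its groups did not overlap, and the log2 fold change was -0.36 ± 0.13 (limma adjusted p = 0.137). MSMO1, the oxidase of the same step, was at 48.12, 58.08 and 54.06 RPKM in control and at 60.03, 62.91 and 68.54 RPKM in PA. MSMO1 was higher in every PA library, with a log2 fold change of 0.25 ± 0.11 (limma adjusted p = 0.199). HSD17B7, the reductase that completes that step, was at 11.2 ± 0.363 and 10.9 ± 1.45 RPKM (log2 fold change -0.04 ± 0.12, 95% interval -0.32 to 0.23). Its listed pseudogene HSD17B7P2, at 1.07 RPKM, may share reads with it. The enzymes of the demethylation complex therefore had values below, above and near zero.

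The other late enzymes did not separate. CYP51A1, the demethylase that acts first on lanosterol, averaged 38.4 ± 2.53 RPKM in control and 37.9 ± 2.09 RPKM in PA, with a 95% interval of the log2 fold change from -0.25 to 0.22. EBP, the isomerase, had a value of -0.01 (95% interval -0.35 to 0.33). DHCR7, which makes cholesterol in the final reduction of a branch of the pathway, had -0.14 (95% interval -0.52 to 0.24). Summed over the 18 enzymes, the level was 942, 989 and 908 RPKM in control 1 to 3 and 997, 987 and 1059 RPKM in PA 1 to 3. The RPKM of all genes summed to 766767, 808623 and 733025 in control 1 to 3 and to 809535, 796422 and 881369 in PA 1 to 3. That total was likewise highest in PA 3 and lowest in control 3, and the enzyme sums were not rescaled for it. FDFT1 alone makes up a large part of the enzyme sum. The median deviation of the 18 enzymes from the control mean was -0.06, -0.07 and 0.02 log2 units in PA 1 to 3.

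Of the 7 SREBP control genes, 0 passed (1, INSIG1, with an unadjusted limma p under 0.05), and the median log2 fold change was 0.0094. SREBF2 was at 54.47, 48.95 and 55.87 RPKM in control and at 68.36, 55.72 and 41.46 RPKM in PA. PA 1 was above and PA 3 below every control, so the PA group spread over a wider range than the controls and included them. The log2 fold change was 0.03 ± 0.18, with a 95% interval from -0.38 to 0.43, and ranged from -0.14 without PA 1 to 0.22 without PA 3. SREBF1, which encodes the SREBP forms tied more to fatty acid synthesis, was at 30.48, 30.49 and 25.45 RPKM in control and at 33.41, 27.39 and 24.05 RPKM in PA. As with SREBF2, PA 1 was the highest and PA 3 the lowest of the 6 libraries. The log2 fold change of SREBF1 was -0.03 ± 0.14 (95% interval -0.37 to 0.30).

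SCAP, the escort protein of SREBP, was at 21.32, 22.21 and 19.78 RPKM in control and at 18.82, 20.02 and 16.21 RPKM in PA (log2 fold change -0.20 ± 0.12, limma adjusted p = 0.32). PA 3 was again the lowest library, and without it the value was -0.11. MBTPS1, the first of the SREBP proteases, was at 48.82, 46.47 and 49.34 RPKM in control and at 54.31, 50.8 and 41.37 RPKM in PA, with PA 1 and PA 2 above and PA 3 below all controls. Its log2 fold change was 0.0094 ± 0.12 (95% interval -0.27 to 0.29). MBTPS2, the protease that makes the next cut, was at 6.11 ± 0.555 and 6.81 ± 0.373 RPKM (log2 fold change 0.14 ± 0.12, limma adjusted p = 0.484).

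INSIG1 and INSIG2, the sterol-dependent anchors of SCAP, had log2 fold changes of opposite sign, and the difference between them was not tested. INSIG1 was at 38.04, 37.89 and 39.09 RPKM in control and at 45.87, 42.57 and 48.67 RPKM in PA. Every PA library was above the narrow control range, and the log2 fold change was 0.25 ± 0.10, which did not pass (limma adjusted p = 0.164). INSIG2 was at 9.16, 9.54 and 10.14 RPKM in control and at 7.39, 7.34 and 11.24 RPKM in PA. PA 1 and PA 2 were below and PA 3 above all controls, and the log2 fold change was -0.16 ± 0.17 (limma adjusted p = 0.574). It was -0.34 without PA 3, -0.07 without PA 1 and -0.066 without PA 2. In PA 3 this is the reverse of the place taken by SREBF1, SREBF2, SCAP and MBTPS1. The INSIG1 to INSIG2 ratio of levels, given without a test, was 3.86 to 4.15 in control, and 6.21, 5.80 and 4.33 in PA 1 to 3.

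**Figure D4:**
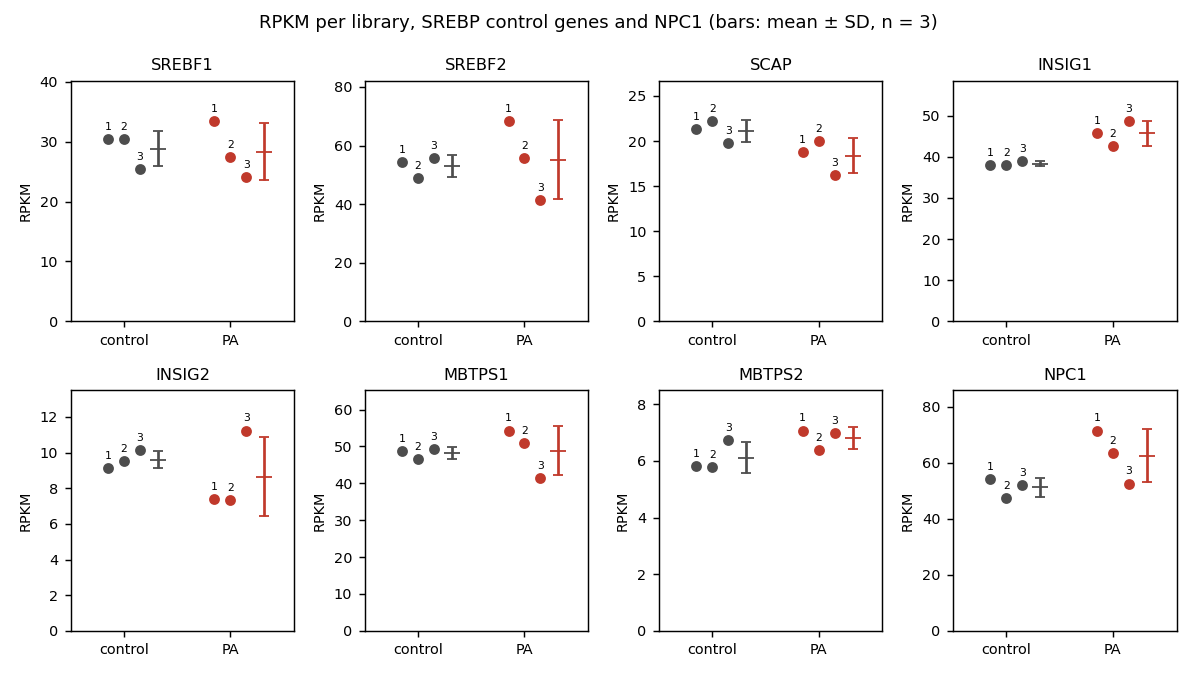
RPKM in each library (points numbered by replicate; axes from 0) with mean ± SD (n = 3) for the 7 SREBP control genes and NPC1. PA 3 is the lowest library for SREBF1, SREBF2, SCAP and MBTPS1 and the highest for INSIG1 and INSIG2; only INSIG1 has groups that do not overlap.

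The spread among the PA libraries was thus wider than the difference between groups for several control genes. The median deviation of the 7 control genes from the control mean was 0.19, 0.06 and -0.22 log2 units in PA 1, PA 2 and PA 3, whereas that of all genes tested was 0.03, -0.02 and -0.04. Among the 30 genes, PA 1 was the highest PA library in 13, PA 3 in 14 and PA 2 in 3. The counts for the lowest PA library were 7, 11 and 12 for PA 1, PA 3 and PA 2. The part of PA 1 and PA 3 as single libraries in these values was not tested beyond leaving each out.

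**Figure D5:**
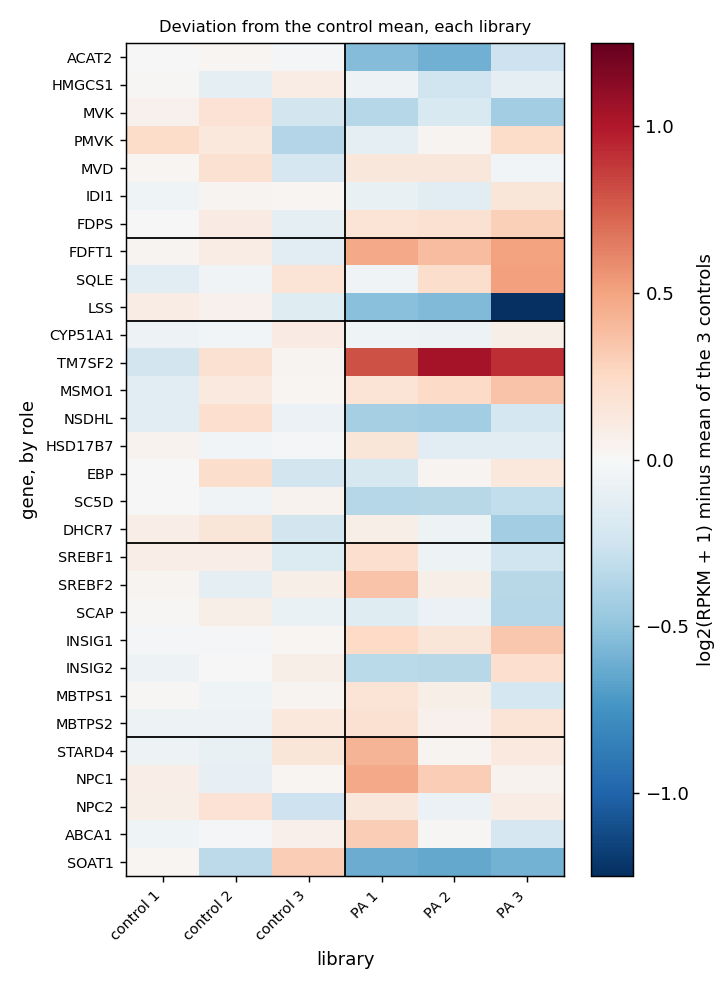
Log2(RPKM + 1) of each gene in each library minus the mean of the 3 controls (colour; red higher, blue lower), with the genes in rows by role. TM7SF2 and FDFT1 are red and LSS, ACAT2, SC5D and SOAT1 blue in all 3 PA columns, while SREBF1, SREBF2, SCAP and MBTPS1 are lowest in PA 3.

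The sterol traffic genes had 0 of 5 past the threshold, and 1, SOAT1, had an unadjusted limma p under 0.05. SOAT1, which esterifies cholesterol for storage, was at 33.95, 26.38 and 41.74 RPKM in control and at 21.45, 21.16 and 21.83 RPKM in PA. The controls spread widely, the PA libraries were nearly equal, and the groups did not overlap. The log2 fold change of SOAT1 was -0.62 ± 0.16, from 34.0 ± 7.68 to 21.5 ± 0.336 RPKM, and did not pass (limma adjusted p = 0.0659). It passed with a minimum of 5 RPKM (adjusted p = 0.0478), with the robust variance model (0.0499), once the length and GC trend was removed (-0.41, adjusted p = 0.0376) and among protein-coding genes alone (0.0334), but in none of the 6 fits that left out a library.

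NPC1, the membrane protein that passes sterol out of the lysosome, was at 54.3, 47.44 and 52.02 RPKM in control and at 71.59, 63.44 and 52.65 RPKM in PA. PA 1 and PA 2 were above all controls and PA 3 lay among them. NPC1 had a log2 fold change of 0.27 ± 0.13 (limma adjusted p = 0.236), which was 0.17 without PA 1 and 0.39 without PA 3. RMC1, a gene on the opposite strand whose exons overlap NPC1, averaged 14.8 ± 0.136 RPKM in control and 19.2 ± 1.71 RPKM in PA, with a log2 fold change of 0.35 ± 0.11 (limma adjusted p = 0.0934). NPC2 was at 327 ± 50.3 and 337 ± 26.2 RPKM, with a 95% interval of the log2 fold change from -0.26 to 0.37. STARD4, a soluble sterol carrier, was at 16.6 ± 1.67 and 19.2 ± 2.95 RPKM (log2 fold change 0.19 ± 0.14, limma adjusted p = 0.401; 0.079 without PA 1). ABCA1, the efflux pump and a classical target of the sterol-sensing receptor LXR, was low, with 2.51, 2.61 and 2.81 RPKM in control and 3.52, 2.69 and 2.15 RPKM in PA, with PA 1 above and PA 3 below all controls.

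Other genes of sterol metabolism gave a similar picture. Of 68 tested genes on 5 lists, 1 rose and 1 fell, or 2.94% beside 4.81% of all genes tested, and their median log2 fold change was -0.04. GRAMD1A, which moves plasma membrane cholesterol to the endoplasmic reticulum, was at 18.22, 16.76 and 14.55 RPKM in control and at 24.94, 31.72 and 24.57 RPKM in PA. It rose in all 3 PA libraries (log2 fold change 0.68 ± 0.14, limma adjusted p = 0.0387), and was the 1 gene past the threshold among 24 of sterol uptake, transfer and storage. The call was lost in all 6 fits that left out a library.

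FNTB, the beta subunit of the farnesyltransferase that attaches the pathway's farnesyl unit to proteins, was at 5.94, 7.5 and 4.77 RPKM in control and at 2.31, 2.83 and 2.33 RPKM in PA. FNTB fell in all 3 PA libraries (log2 fold change -1.004 ± 0.17, limma adjusted p = 0.0279), as the 1 gene past the threshold among 14 of the isoprenoid branches. That call too was lost in all 6 fits that left out a library, and exons of FNTB overlap those of the readthrough gene CHURC1-FNTB, at 0.262 RPKM. FNTA, the alpha subunit, had a log2 fold change of 0.20. None passed among 19 regulation partners of SREBP and sterol synthesis, 7 genes of LXR and efflux, or 4 late enzymes outside the 30, where 4, 1 and 1 had an unadjusted limma p under 0.05. Of these, VCP, the ATPase that pulls proteins from the endoplasmic reticulum for degradation, came nearest, with 174 ± 7.54 RPKM in control, 128 ± 11.1 RPKM in PA and a log2 fold change of -0.44 ± 0.10 (limma adjusted p = 0.0532). VCP passed in 6 of the 11 alternatives that kept all libraries (lowest adjusted p = 0.00886) and in 0 of the 6 that left out 1, with values from -0.55 to -0.37.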

How the data were processed

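Messenger RNA of 6 libraries (3 control, 3 PA) was analysed from 1 table per library. The authors deposited RPKM, the number of reads scaled to transcript length and library size, with 2 decimals. The submitters' processing notes list FastQC, fastp, HISAT2, StringTie, RSEM and hg19, without saying what each did. The sources used here do not give the gene models, the use of strand or the handling of reads that match several genes. The annotation used (GENCODE 29) and the RefSeq promoters are on another build, so they were joined by identifier or symbol only, and no coordinates of the measured genes are printed.

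RPKM are not counts, so the main test was limma (version 3.58.1, R 4.3.3; eBayes with a variance trend, both directions) on log2(RPKM + 1) over 14159 genes with a mean of at least 1 RPKM, without covariates. P-values were adjusted by Benjamini-Hochberg over all of them, with a threshold of 0.05. Fold changes on this scale understate the change of low genes. No exact permutation test was run, since 3 against 3 libraries can give no p under 0.1. The fit was tested on simulated data with the gene means and SDs of the 14159 genes, with 200 genes changed in each of 10 runs: it recovered 8.21% of changes of 0.5 log2 units, 63.6% of 1 and 94.2% of 2, and 4.08% of its calls were false. Changes of 0.5 log2 units were thus mostly missed in that setting, and smaller ones were not simulated. The simulated noise was independent between genes and 200 genes changed, whereas 681 passed in the data, so these shares may not carry over.

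The 30 genes and all lists were chosen with earlier results of these data known. The text names every gene of the 30 past the threshold, the 2 with the largest absolute log2 fold changes in each role among the rest, all SREBP control genes, and genes past the threshold on the other lists. The remaining genes of the 30, LBR, VCP and FNTA, and the overlapping VPS51, TCP1 and RMC1, were added after their values were seen. Alternatives changed the pseudocount, the filter, the scaling, the variance model, the replicate block, a length and GC trend (splines with 4 degrees of freedom) and the libraries used. Replicate numbers do not pair the libraries by the labels: deviations of same-numbered libraries correlated at 0.157, -0.014 and 0.037 across genes.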

Additional observations from a re-analysis of the deposited data

How the results depend on the processing

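The number of genes past the threshold over all genes tested, 681, was 72 without the filter on low values, 98 with the replicate block, 1875 with the length and GC trend removed, and 10 to 364 when 1 library was left out. Control 1 left out gave 15, control 2 gave 78 and control 3 gave 80; PA 1 left out gave 202, PA 2 gave 10 and PA 3 gave 364. It was 1157 among protein-coding genes alone, a setting chosen after seeing the data. Of the 30 sterol genes, the 2 called higher became 0 without the filter, 1 with a common sum, quantile normalization, no variance trend or the replicate block, and 0 to 1 with a library left out. In the main fit, 9 of the 30 genes in either direction had an unadjusted limma p under 0.05, beside 3663 of all 14159 genes tested. The 0 called lower by limma became 3 with a minimum of 5 RPKM, 1 with a common sum and 2 with the robust variance model. It became 3 with the trend removed, 3 among protein-coding genes alone, and 0 to 1 of the 30 genes with a library left out. Their median of -0.0012 was -0.106 with a common sum, where that of all genes was -0.11, then -0.0347 with the trend removed, and -0.0375 to 0.0197 with a library left out. The replicate numbers are shared labels only, and the block added no call among the 30 genes and took away that of FDFT1. The cause of these shifts was not tested.

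Sign changes were found in 13 genes whose log2 fold change was at most 0.146 in size. With a common sum PMVK was -0.0499, MVD -0.0226, SREBF2 -0.0772, MBTPS1 -0.0957, NPC2 -0.053 and ABCA1 -0.0358. With quantile normalization HSD17B7 was 0.0208, SREBF2 -0.0081, MBTPS1 -0.0217 and NPC2 -0.106. With the trend removed HMGCS1 was 0.0037, PMVK -0.052, MVD -0.097, IDI1 0.0663, CYP51A1 0.0393, MBTPS1 -0.055 and NPC2 -0.0173. With a library left out the ranges were -0.132 to 0.168 for PMVK, -0.0232 to 0.177 for MVD, -0.119 to 0.0276 for IDI1, -0.0626 to 0.0332 for CYP51A1, -0.141 to 0.0069 for HSD17B7, -0.126 to 0.10 for EBP, -0.258 to 0.0058 for DHCR7, -0.156 to 0.0732 for SREBF1, -0.138 to 0.216 for SREBF2, -0.0705 to 0.122 for MBTPS1, -0.0753 to 0.145 for NPC2 and -0.0949 to 0.166 for ABCA1.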
